A study of Mus musculus with 8 samples.

Results

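The histone cluster genes were taken as all probes of the array, other than control spots, whose gene name begins with Hist and a digit. They comprised 54 probes for 49 gene names, of 55681 probes and 36163 gene names on the array, and were sorted by the histone in the name into 6 H1, 14 H2A, 12 H2B, 8 H3 and 9 H4 genes. The cells were E14Tg2A, a mouse embryonic stem (ES) cell line of the 129/Ola strain, differentiated towards neurons and sampled at 4 stages. ES cells were kept in serum with leukemia inhibitory factor (0 days in vitro, DIV), epiblast-like aggregates (ELA) had floated in N2/B27 medium for 2 DIV, neural precursor cells (NPC) had then adhered to poly-ornithine and laminin and were taken at 6 DIV, and the NPC/Neu culture, a mixture of precursors and neurons kept without B27, was taken at 10 DIV. At each stage total RNA was hybridized to 1 array and RNA precipitated from the cytosol with a pan-Ago antibody (Ago-RNA) to another, each array holding RNA pooled from independent experiments of this single line. All 8 arrays lay on 1 slide and were read in 1 scan.

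Core histones H2A, H2B, H3 and H4 form the nucleosome around which DNA is wound, and H1 binds the linker DNA between nucleosomes. Most genes of the histone clusters are transcribed in S phase, and their mRNAs end in a short stem-loop, bound by the protein Slbp, in place of a poly(A) tail. Some of them can also be read past the stem-loop into longer, polyadenylated transcripts, known chiefly from cells that leave the cell cycle. Ago proteins carry microRNAs to matching sites of mRNAs, mostly behind the coding sequence. An mRNA abundant in Ago-RNA relative to total RNA may thus have been associated with Ago in the cytosol. No array held RNA precipitated with control IgG, so binding to Ago above nonspecific precipitation was not tested. Ago-RNA was taken from the cytosol, and the part of this in its ratio to total RNA was not tested. The labeling kit named in the methods is known to prime cDNA from poly(A) tails, and how far mRNAs without a tail entered the label was not tested.

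The stem-loop sequences are printed because the place of a probe before or behind this element was used below to sort the probes. The histone stem-loop motif, with the letters that all forms below share, was searched on both strands within 100 bases after the stop codon (mm9 genome, GENCODE gene models). It was found on the gene's strand in 63 of 67 annotated histone cluster genes and in 8 of 21723 other coding genes, that is in 0.3258% of all 21790. Capitals mark both arms of the stem, and each window runs 5′ to 3′ on the strand of the gene. The windows lie at chr13:21871701-21871726 (minus strand) for Hist1h1b, chr13:23836911-23836936 (minus) for Hist1h3c, chr13:23627753-23627778 (plus) for Hist1h3g, chr13:21874784-21874809 (minus) for Hist1h3i, chr13:22132830-22132855 (minus) for Hist1h4i, chr13:21827301-21827326 (plus) for Hist1h4j and chr11:58762846-58762871 (plus) for Hist3h2ba.
Hist1h1b: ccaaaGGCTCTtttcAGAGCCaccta
Hist1h3c: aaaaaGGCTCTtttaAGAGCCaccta
Hist1h3g: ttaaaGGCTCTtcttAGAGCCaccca
Hist1h3i: caaaaGGCTCTtttcAGAGCCccctc
Hist1h4i: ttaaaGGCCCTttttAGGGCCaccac
Hist1h4j: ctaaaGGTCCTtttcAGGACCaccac
Hist3h2ba: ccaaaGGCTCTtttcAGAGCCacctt
In all, 43 stem-loops were assigned to 44 genes, Hist2h2aa1 and Hist2h2aa2 being read at 1 locus. Those of Hist2h2bb, Hist2h3c2-ps and Hist3h2bb-ps, for which no stop codon was annotated, were taken as the nearest match to the probe. The form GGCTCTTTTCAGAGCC stood at 26 loci of the types H1, H2A, H2B and H3, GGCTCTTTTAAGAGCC at 6 of the same types, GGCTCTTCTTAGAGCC at Hist1h3g and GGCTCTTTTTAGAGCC at Hist2h2ac. The 9 H4 genes carried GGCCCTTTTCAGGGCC (6 genes), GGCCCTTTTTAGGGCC (2 genes) and GGTCCTTTTCAGGACC (Hist1h4j). Of the 54 probes of 60 bases, 36 lay in the transcript body (at most 29 bases beyond the stem-loop), 13 had 30 or more bases past it, and 5 could not be placed in this way. The classes were made after the values had been seen.

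The first 30 bases of 5 probes are given because the readings of these genes stood apart from the rest of their type, and each is the strand of the transcript.
Hist1h3i, transcript body, chr13:21874814-21874843 (minus): ggggagagggcgtaattcccctacctgtta
Hist1h2be, past the stem-loop, chr13:23675640-23675669 (minus): ctggcatgtgtacctccaagcctgctgctg
Hist3h2ba, past the stem-loop, chr11:58762964-58762993 (plus): ggaccttgggatcctgagataatacctctt
Hist1h4i, transcript body, chr13:22133169-22133198 (minus): ttcatcatgtctggtcgtggcaaaggagga
Hist1h4i, past the stem-loop, chr13:22132709-22132738 (minus, not an exact match): tttgcttcccgagtgttgggattaaaggcg
The last of these gave 13180 alignments in mm9, partial ones included, whereas no other probe of the family gave more than 26. In all, 23 probes, most of them overlapping coding sequence, had a near-identical copy (54 or more of 60 bases) at another locus, so their values belong to several genes of a type and not to the named gene alone.

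Intensities were given as normalized log2 values, and E stands for the difference Ago-RNA minus total RNA on this log2 scale within a stage. A value counted as measured where the probe was well above background on every array compared. With 1 array per condition no test was possible, and the only error at hand was that between spots: probes printed 10 times (399 probes) had a standard deviation of 0.129 to 0.151 for E, 0.126 to 0.175 for a change in total RNA between stages and 0.177 to 0.206 for a change in E between consecutive stages. A gene was counted as past the fold at an absolute log2 value of 1 or more. Between 53.4 and 61.2% of spots were well above background, no spot was flagged as saturated, and the mean signal had an upper quartile of 3039 for Ago-RNA of ES cells and of 1060 to 1774 for the remaining arrays. Of the 54 member probes 44 were well above background on all 8 arrays and 2 on none. The 5 ES markers Nanog, Zfp42, Klf4, Esrrb and Pou5f1 changed in total RNA from ES to NPC/Neu by -1.97 or less, though from NPC to NPC/Neu all 5 were higher, by 0.30 to 1.96. Sox1, Pax6, Nes and Tubb3 were higher by 2.56 to 4.06 in NPC/Neu than in ES. Fgf5 was highest in ELA (14.78, against 11.96 in ES). Otx2, also listed for ELA, differed less between stages (15.53 in ES, then 16.06, 15.91 and 15.97). Of 5 mesendoderm and endoderm markers T was higher by 2.12 in NPC/Neu and Sox17 by 0.27. Gata4 was not well above background in NPC/Neu (7.64 in ES), and Gata6 and Afp were not in total RNA at any stage. The part of such cells in the results was not tested. In these bulk cultures fewer cells expressing a gene and less RNA of it per cell cannot be told apart.

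The Ago-RNA to total RNA ratio of the histone cluster genes was below 0 in ES cells for all measured genes but 1. The median E of the 43 measured genes was -1.10 (range -2.21 to 0.12), where the median of all 22459 measured genes was 0.04. E was at or below -1 in 24 of the 43 (all genes, 11.6%), and in none was it at or above 1 (all genes, 10.8%). In ELA the median moved to -0.15 (44 genes, range -0.97 to 2.42), with 0 genes at or below -1 (all genes, 2.59%) and 2 at or above 1 (all genes, 3.85%). In NPC it was -0.13 (44 genes, range -0.95 to 3.14), with 0 genes at or below -1 (all genes, 6.18%) and 2 at or above 1 (all genes, 5.89%). In NPC/Neu it was lower again at -0.58 (43 genes, range -1.74 to 0.88), with 8 genes at or below -1 (all genes, 11.8%) and 0 at or above 1 (all genes, 12.5%). The medians of all genes at these 3 stages lay between -0.03 and 0.09. The family was thus low in Ago-RNA in ES and, by less, in NPC/Neu, and close to the other genes of the array in between. Under 75th percentile scaling the ES median was -1.81 (all genes, -0.30), with 37 genes at or below -1. In NPC/Neu 13 were at or below -1 (median of all genes, -0.13). All genes moved under this setting too, so these counts cannot be set against the shares of all genes above. Leaving out probes that have a near-identical copy, a setting chosen after seeing the data, kept fewer genes. Of these, 15 of 25 were at or below -1 in ES and 3 of 24 in NPC/Neu, where the median was -0.44. With Ago-RNA and total RNA arrays normalized separately, the NPC/Neu median was -0.37 (all genes, 0.23) and 4 genes were at or below -1.

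Of the 41 genes measured at all 4 stages, 38 had their lowest E in ES (all genes, 27.9%). Under the other background corrections, normalizations and probe summaries this number was 38 to 40 of 41 (all genes, 27.9 to 38.3%). Without the filter on dim probes it was 42 of 49 (all genes, 26.4%). The exceptions to the 38 of 41 were Hist1h2bp, Hist2h2aa1 and Hist3h2a, whose probes lie past the stem-loop. Their lowest E was in NPC for Hist1h2bp (all genes, 16.4%), in NPC/Neu for Hist2h2aa1 (all genes, 23.8%) and in ELA for Hist3h2a (all genes, 31.9%). For Hist3h2a, E in ELA differed from that in ES by -0.13, within the spread between spots (0.196). Both ES and NPC/Neu were below both ELA and NPC in 29 of the 41 (all genes, 23.9%), and E was below 0 at all 4 stages in 27 (all genes, 27.0%).

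**Figure D1:**
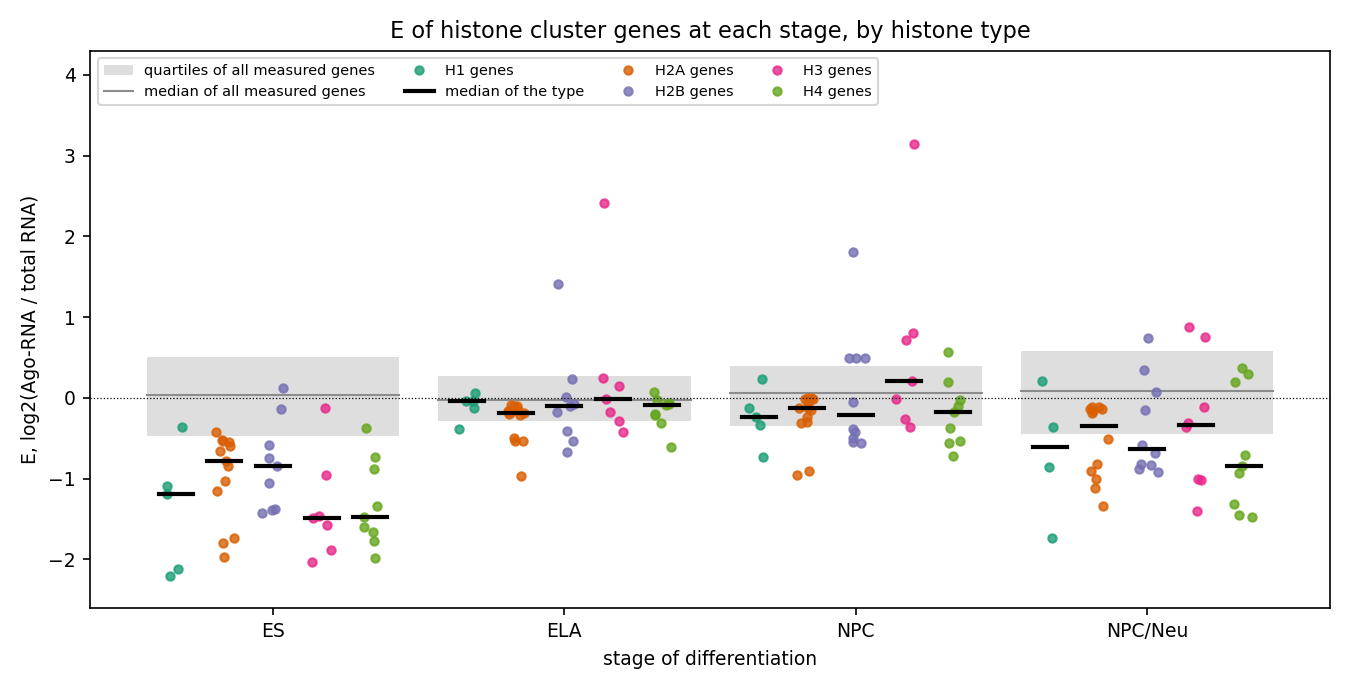
E (Ago-RNA over total RNA, log2) of the measured histone cluster genes (points) at the 4 stages, by histone type, with the median of the type (black bar) and the median and quartiles of all measured genes (grey line and band). Most points lie below the grey band in ES, within or near it in ELA and NPC, and lower again in NPC/Neu.

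From ES to ELA, E rose in 42 of 43 genes by a median of 0.94 (all genes, -0.01), and by 1 or more in 18 (all genes, 8.78%), with 0 at or below -1 (all genes, 6.82%). The rise lay in the Ago-RNA: it went up in all 43 genes, by a median of 1.43 (all genes, 0.05). It rose by 1 or more in 31 (all genes, 10.7%), with 0 at or below -1 (all genes, 9.65%). Total RNA changed by a median of 0.25 (all genes, 0.02). Between ELA and NPC the median change in E was 0.09 and no gene changed by 1 or more (all genes, 1.71% upwards and 3.34% downwards), while Ago-RNA changed by a median of 0.18, with 2 genes at or above 1 (all genes, 11%) and 2 at or below -1 (all genes, 9.89%). From NPC to NPC/Neu, E was lower in 35 of 42 genes, with a median change of -0.50 (all genes, 0.03). In 10 genes it was at or below -1 (all genes, 4.18%) and in 0 at or above 1 (all genes, 2.08%). Ago-RNA of 36 of the 42 was lower, with a median change of -0.75 (all genes, -0.06). In 14 genes it was at or below -1 (all genes, 8.34%) and in 4 at or above 1 (all genes, 8.18%). Over the whole course from ES to NPC/Neu, E was higher in 38 of 41 genes (median change of all genes, 0.03). It was higher by 1 or more in 8 (all genes, 3.95%), with 0 at or below -1 (all genes, 4.94%). Ago-RNA was higher by 1 or more in 18 (all genes, 16.8%), with 0 at or below -1 (all genes, 17.2%). Under 75th percentile scaling the median change in E from ES to ELA was 1.59 (all genes, 0.19), with 36 genes at or above 1, and 6 genes were at or below -1 from NPC to NPC/Neu. Shares of all genes under this setting are not given beside these counts. Without probes that have a near-identical copy, 11 of 25 genes were at or above 1 from ES to ELA, and the median change in E from NPC to NPC/Neu was -0.29.

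**Figure D2:**
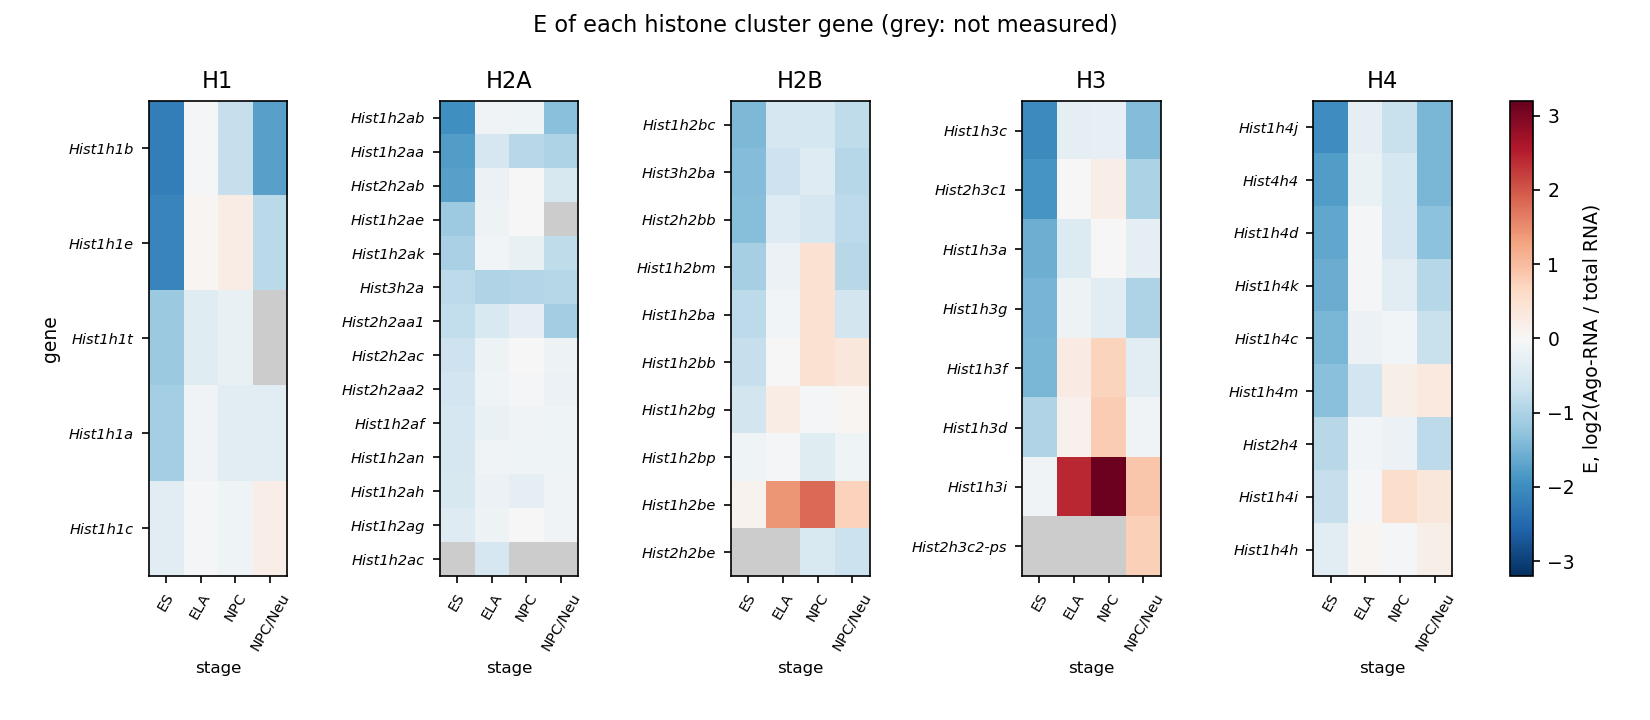
E of each histone cluster gene with a measured value at 1 stage or more, genes in rows ordered by their E in ES within a type, stages in columns, blue below 0 and red above 0. The ES column is blue for nearly all genes, and Hist1h3i and Hist1h2be are red in ELA and NPC.

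The H1 genes encode the linker histones, and 5 of 6 were measured in ES, at a median E of -1.19 and with 4 at or below -1 (all genes, 11.6%). Hist1h1b, a somatic subtype, had total RNA of 15.03, 15.18, 15.61 and 14.87, and 12.82, 15.14, 14.87 and 13.13 in Ago-RNA. Its E was therefore -2.21, -0.03, -0.74 and -1.74, the lowest of the family in ES and in NPC/Neu. Total RNA of Hist1h1e, another somatic subtype, read 14.47, 15.53, 15.60 and 15.70, and its Ago-RNA 12.35, 15.60, 15.83 and 14.85. Its E went from -2.11 in ES to 0.07 in ELA and 0.23 in NPC and back to -0.85 in NPC/Neu. Both genes had probes without a near-identical copy, in coding sequence for Hist1h1b and reaching the stop codon for Hist1h1e.

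Hist1h1a, the third somatic subtype read in the transcript body, had an E of -1.10, -0.12, -0.34 and -0.36, with total RNA of 12.44, 12.90, 12.52 and 11.50. Hist1h1t, the testis form of H1, had an E of -1.19 in ES, -0.39 in ELA and -0.24 in NPC, and its Ago-RNA was not well above background in NPC/Neu. Its total RNA was 9.51 in ES and then 9.76, 7.88 and 7.32 at the stages that followed, the largest fall in total RNA of the family. Total RNA of Hist1h1c, read 621 bases past the stem-loop, went the other way, from 9.08 in ES through 9.23 and 9.63 to 10.66 in NPC/Neu, which is 3.00-fold, at an E of -0.36, -0.03, -0.13 and 0.21. Hist1h1d, read 2115 bases past the stem-loop, was well above background in ES total RNA only (7.31), and there at least 1.5-fold over Ago-RNA.

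The H2A genes had a median E of -0.78 in ES (13 genes, 5 at or below -1, against 11.6% of all genes), and the members fell in groups by signal. The 7 probes with a mean signal above 60% of the saturation value of the scanner (66.5 to 96.5% at their highest total RNA) were all of H2A and had an E of -0.66 to -0.41 in ES, -0.21 to -0.09 in ELA and -0.19 to -0.11 in NPC/Neu. In ES and NPC/Neu these values were closer to 0 than those of the other measured H2A probes, and the part of closeness to saturation in this was not tested. Without these probes the family's median E was -1.37 in ES and -0.82 in NPC/Neu. Among them were Hist1h2ag and Hist1h2ah, which had the highest E of the type in ES (-0.42 and -0.52), and Hist1h2ag also that in NPC/Neu (-0.11). These small values depended on the processing. Over all settings E in ES ran from -1.78 to -0.42 for Hist1h2ag and from -1.79 to -0.45 for Hist1h2ah.

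Hist1h2ab, a replication-linked H2A, had the lowest E of the type, with total RNA of 16.96, 17.23, 17.66 and 17.41, and Ago-RNA of 15, 17.13, 17.51 and 16.08. Its E was -1.97 in ES and then -0.10, -0.15 and -1.34 at the stages that followed. Hist1h2aa, the testis form of H2A, had an E of -1.80, -0.53, -0.90 and -1.0 and a total RNA between 10.75 and 11.35 at all stages. The pattern of a low E in ES was present in both, at levels read by probes without a near-identical copy. The probes of Hist1h2ak, both in the transcript body and both with near-identical copies, differed by 1.24 in ES: at -1.65 for the one farther from saturation and -0.41 for the one that reached 90.9% of it. Hist2h2ab had an E of -1.73, -0.20, -0.01 and -0.51, and total RNA of 9.14, 9.47, 9.40 and 8.57. Hist1h2ae, read just past its stem-loop, fell in total RNA from 8.56 in ES through 8.04 and 7.39 to 7.19 in NPC/Neu. Hist1h2ac was well above background in Ago-RNA at ELA only, where its E was -0.53.

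The H2B genes had a median E of -0.84 in ES, with 4 of 9 at or below -1 (all genes, 11.6%). Hist1h2bc, whose total RNA was 10.61, 10.67, 10.31 and 11.37, had the lowest E of the type in ES and stayed below 0 throughout (-1.43, -0.54, -0.56 and -0.82). Hist1h2be was the 1 gene of the family above 0 in ES. Its total RNA, read 1730 bases past the stem-loop, stayed between 8.47 and 8.88, while its Ago-RNA read 8.93 in ES and then 10.29, 10.59 and 9.21 at the stages that followed. E was thus 0.12, 1.41, 1.81 and 0.74, higher in ELA and NPC than in ES, and under the other settings between -0.25 and 0.21 in ES and between 1.41 and 1.64 in ELA. Hist1h2bp, also read past the stem-loop, had an E of -0.14, -0.07, -0.39 and -0.15, and Hist1h2bg one of -0.58, 0.23, -0.05 and 0.07. Hist1h2bb, Hist1h2ba and Hist1h2bm had the 3 values of 0.49 to 0.50 seen in NPC, the latter pair from probes with copies at 14 and 15 other loci. Hist2h2bb, read at the stem-loop, had an E of -1.37, -0.41, -0.55 and -0.84. Hist1h2bq, whose probe lies in the annotated Hist1h2br, was well above background in NPC Ago-RNA only, at least 1.71-fold over total RNA, and Hist3h2bb-ps, a pseudogene, on no array.

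The H3 genes had the lowest median E in ES of the types, at -1.48, though H4 at -1.47 was not apart from it by the spread between spots (0.129). Of the H3 genes 5 of 7 were at or below -1 (all genes, 11.6%), and in NPC their median was the highest, at 0.21. All 7 rose in E by 1 or more from ES to ELA (median 1.72; all genes, 8.78%), and 4 of 7 fell by 1 or more from NPC to NPC/Neu (median -1.08; all genes, 4.18%). Hist1h3c had total RNA of 13.31, 13.52, 14.11 and 13.79 and Ago-RNA of 11.27, 13.23, 13.85 and 12.39, which gave an E of -2.04, -0.29, -0.26 and -1.40. Hist2h3c1 followed the same order (-1.89, -0.01, 0.21 and -1.01), though with near-identical copies at 7 other loci. Hist1h3d, with copies at 11, went from -0.95 through 0.15 to 0.80 and back to -0.11. Hist1h3a and Hist1h3f went from -1.57 and -1.47 in ES to -0.01 and 0.72 in NPC, and Hist1h3g from -1.48 to -0.36.

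Hist1h3i stood apart from the other H3 genes. Its total RNA was 11.17 in ES and then 11.37, 12.18 and 11.46 at the stages that followed, and its Ago-RNA 11.05, 13.79, 15.32 and 12.34. E was thus -0.12, 2.42, 3.14 and 0.88, near 0 in ES and the highest of the family at the other stages. It was the only member to meet, at the step from ES to ELA, the criteria for loading onto Ago set by the study's methods (a bound level in Ago-RNA, an E of at least 2 after and at most 0.5 before the step, and a change of at least 1.5), which 68 genes met (0.188% of all). No member met the criteria for loading at the later steps (0.0442% and 0.0553% of all genes) or those for release at any step (0.277%, 0.13% and 0.0442% of all genes). Under the other settings its E was 2.42 to 2.87 in ELA and -0.15 to 0.31 in ES. Its probe spans the stop codon and the stem-loop and has no near-identical copy. Hist2h3c2-ps, a pseudogene, was well above background in both RNAs in NPC/Neu only, where E was 0.75.

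**Figure D3:**
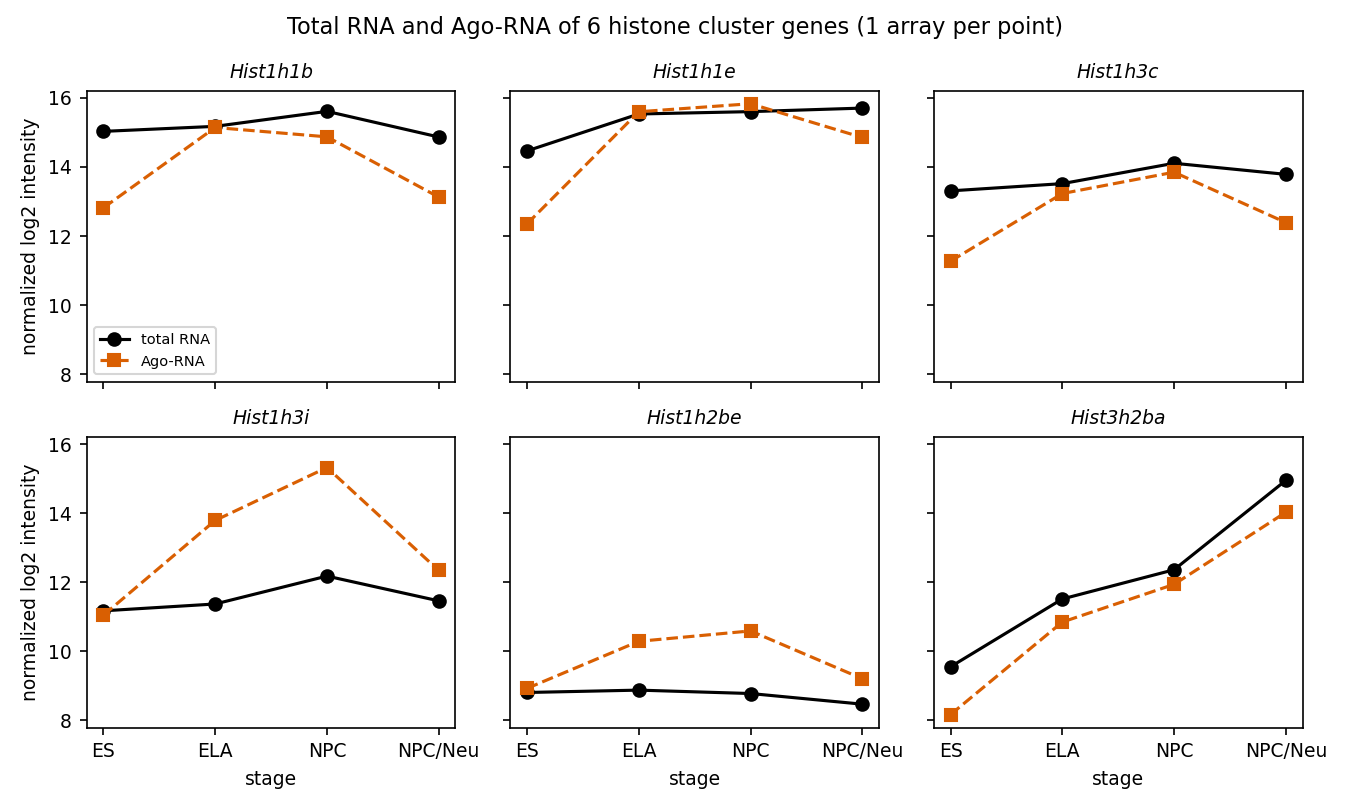
Normalized log2 intensity of total RNA (black, circles) and Ago-RNA (orange, squares) of 6 histone cluster genes at the 4 stages, 1 array per point. For Hist1h1b, Hist1h1e and Hist1h3c the Ago-RNA lies below total RNA in ES and NPC/Neu and close to it in ELA, for Hist1h3i and Hist1h2be it lies above total RNA in ELA and NPC, and for Hist3h2ba both rise together.

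The H4 genes had a median E of -1.47 in ES, with 6 of 9 at or below -1 (all genes, 11.6%), and of -0.85 in NPC/Neu, with 3 at or below -1 (all genes, 11.8%). Hist1h4j, whose stem differs from that of the other H4 genes, had the lowest E of the type at both stages, at -1.99, -0.32, -0.72 and -1.47 over the 4 stages, with total RNA of 13.39, 13.61, 13.93 and 13.60. Hist4h4 was nearly as low (-1.78, -0.21, -0.56 and -1.45) by its coding probe, while its other probe, 1354 bases past the stem-loop, was not well above background on any array. The coding probes of Hist1h4j and Hist4h4 had copies at 6 and 9 other loci. Hist1h4c and Hist1h4d had an E in ES of -1.47 and -1.66, Hist1h4k of -1.31 and -1.89 by its 2 probes, and Hist2h4 of -1.30 and -0.46 by its 2 probes. The latter probe of Hist2h4 was dim, at 7.43 in ES total RNA against 17.09 for the former, and did not match mm9 exactly. The gene's mean of -0.88, not past the fold, thus combined unlike readings.

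Hist1h4h had the highest E of the type in ES, and all its values were small: -0.37, 0.07, -0.03 and 0.20. Hist1h4m went from -1.34 in ES through -0.61 to 0.19 and 0.30. Hist1h4i had 2 probes that differed by 2.08 in ES. The transcript body probe gave an E of -1.77, -0.47, -0.03 and -0.18, and the probe past the stem-loop, which aligned to many places in the genome, gave 0.30, 0.40, 1.16 and 0.93. The gene's mean of -0.74 in ES and 0.37 in NPC/Neu therefore combined unlike readings.

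In ES and NPC/Neu the place of the probe, by classes made after the values had been seen, went with the size of E. The classes were not matched for signal level, and the part of this was not tested. E in ES also moved with the setting in both classes, from -2.40 to -1.15 for Hist1h2ae (past the stem-loop) and from -2.84 to -1.70 for Hist2h2ab (transcript body). In ES the median E was -1.37 over the 35 measured probes in the transcript body and -0.58 over the 9 past the stem-loop. In NPC/Neu it was -0.58 over 33 and 0.07 over 9, the latter without Hist1h2ae and with Hist2h3c2-ps. The change in E from ES to ELA was 1.27 at the median of the former and 0.32 of the latter. In ELA and NPC the classes were close. Medians over genes were -0.15 and -0.11 by transcript body probes, and -0.12 and -0.13 by probes past the stem-loop. Among transcript body probes, the 16 without and the 19 with a near-identical copy had a similar median E in ES, at -1.47 and -1.31. On genes read by transcript body probes alone, the lowest E was in ES in 31 of 31 (all genes, 27.9%). By probes past the stem-loop alone it was in ES in 5 of 8 (all genes, 27.8%). The exceptions named above were all read past the stem-loop, so this split, made with the values known, is no separate support.

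Total RNA of most histone cluster genes changed little. From ES to ELA 40 of 43 genes were higher, by a median of 0.25 (all genes, 0.02), where the spread between spots was 0.175. At this step 4 genes were at or above 1 (all genes, 4.23%) and 0 at or below -1 (all genes, 4.38%). From ELA to NPC the median change was 0.22 (all genes, -0.05), with 0 genes at or above 1 (all genes, 9.9%) and 1, Hist1h1t, at or below -1 (all genes, 9.2%). From NPC to NPC/Neu it was -0.22 (all genes, -0.03), with 6 genes at or above 1 (all genes, 5.7%) and 2 at or below -1 (all genes, 4.12%). Over the whole course it was 0.30 (all genes, -0.06), with 6 of 44 genes at or above 1 (all genes, 15.9%) and 2 at or below -1 (all genes, 15.7%). When the signals were scaled to the 75th percentile in place of quantile normalization, this last median was -0.31 (all genes, -0.21), and without probes that have a near-identical copy it was 0.031, so the direction of such small changes was not settled. Only 1 transcript body probe of 35, that of Hist1h1e, was at or above 1 over the whole course.

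Among genes measured in both ES and NPC/Neu, those with the 4 largest rises in total RNA, Hist3h2ba, Hist3h2a, Hist2h2aa1 and Hist1h1c, were read past the stem-loop. Hist3h2ba, an H2B gene of the small cluster on chromosome 11, read 9.55 in ES and then 11.52, 12.36 and 14.95 at the stages that followed, which is 42.1-fold over the course. Its Ago-RNA rose along with it (8.17, 10.85, 11.94 and 14.03), at an E of -1.38, -0.67, -0.42 and -0.92. Hist3h2a, the H2A gene of the same cluster, rose 27.6-fold in total RNA (8.96, 10.96, 11.01 and 13.74). Its E hardly moved here, at -0.84, -0.97, -0.95 and -0.90. Over all settings, however, its E in ES was between -1.52 and -0.80, and its change in E from ES to ELA between -0.13 and 0.54. In total RNA both genes stepped up between ES and ELA and again between NPC and NPC/Neu. The probe of Hist3h2a lies within the span of Trim17, whose own probe was not well above background in total RNA at any stage.

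Hist2h2aa1 rose 13-fold, most of it in the last step (8.32, 8.74, 9.17 and 12.02), while E ended at -1.12 after -0.78, -0.49 and -0.30. This probe also lies within an annotated transcript of Hist2h3c1 and has an identical copy at Hist2h2aa2, so the rise cannot be assigned to Hist2h2aa1 alone. It holds the stem-loop itself, with 38 bases past it. The coding probe named for Hist2h2aa2, which lies at the same locus and has near-identical copies at 10 others, read 18.34, 18.56, 18.85 and 18.77 over the same stages, with up to 66.5% of the saturation value. Hist2h2be, whose probe lies behind the stop codon but could not be set against a stem-loop, went from 7.09 in ES to 8.87 in NPC and 8.65 in NPC/Neu. Hist2h3c2-ps, an H3 pseudogene read past the nearest stem-loop match, was at least 5.0-fold higher in NPC/Neu (9.06) than in ES total RNA, where it was not well above background. Of the 9 probes past a stem-loop measured at both ends, 4 were higher in NPC/Neu than in ES and 5 lower, with a median change of -0.34. The lower ones were Hist1h2ae (-1.37), the Hist1h4i probe with many alignments (-0.70), Hist1h2bg (-0.41), Hist1h2be (-0.34) and Hist1h2bp (-0.34).

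**Figure D4:**
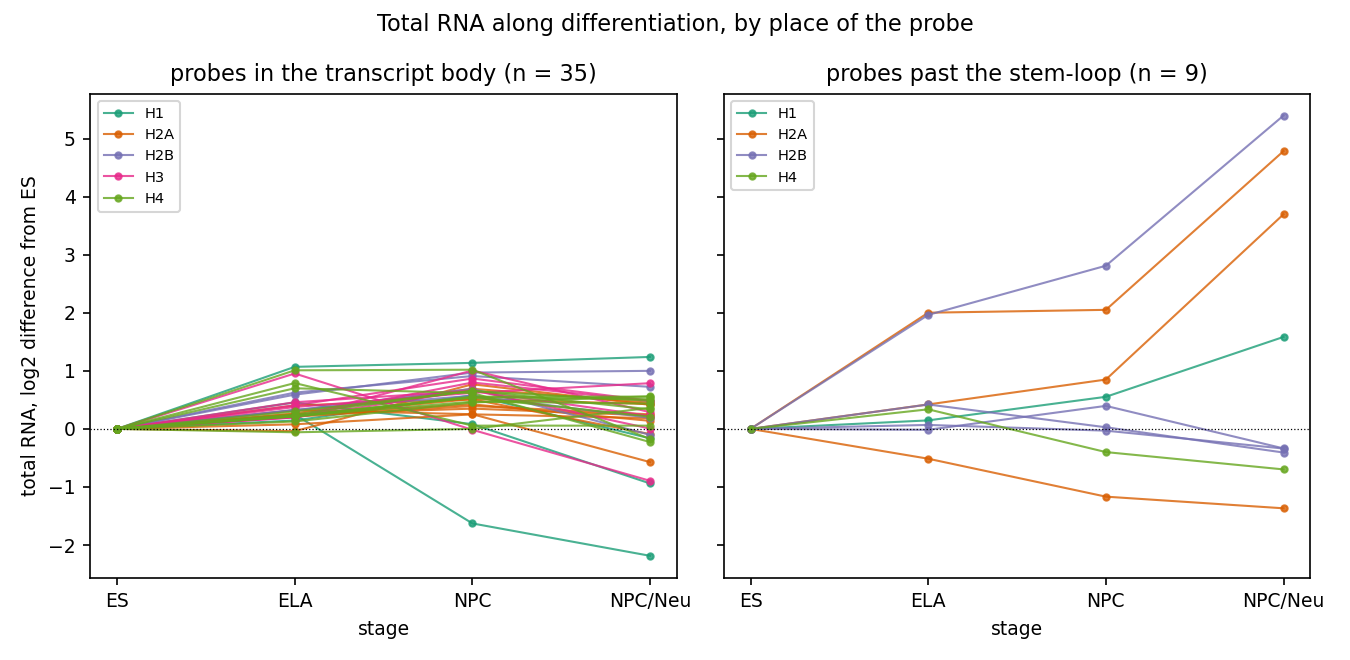
Total RNA of each probe as the log2 difference from ES at the 4 stages, for probes in the transcript body (left, n = 35) and past the stem-loop (right, n = 9) that were well above background in total RNA at all stages, colored by histone type. Transcript body probes stay mostly within 1 unit of ES, and Hist3h2ba, Hist3h2a and Hist2h2aa1 rise past 3 units on the right.

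Among the H3 genes measured at both ends, Hist1h3g fell by 0.89 from ES to NPC/Neu (10.75, 11.70, 10.73 and 9.86), while Hist1h3d was higher by 0.79 and Hist2h3c1 by 0.49. Among H4 genes the largest differences over the course were 0.52 for Hist1h4k and 0.51 for Hist1h4d upwards, and -0.46 for Hist1h4i and -0.17 for Hist1h4m downwards. The value for Hist1h4i is the mean of unlike probes, at 0.85-fold in the transcript body and 0.62-fold by the probe with many alignments. The values for Hist1h3d, Hist2h3c1, Hist1h4k and Hist1h4d turned negative under 75th percentile scaling.

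Genes of the wider histone supply were read on the same arrays. The replacement histone variants are histones that can be made outside S phase, most of them from polyadenylated mRNAs. Of the 15 listed 13 were measured, with a median E in ES of -0.57. Only H3f3a, which encodes H3.3, was at or below -1 there (-1.95; all genes, 11.6%), followed by H2afz (-1.0, not past the fold) and H1foo (-0.92), and the highest were H1fx (0.11), H1f0 (-0.10) and H2afy2 (-0.18). Total RNA of 6 of the 13 was higher by 1 or more in NPC/Neu than in ES (all genes, 15.9%), among them H2afy3 (4.32), H1fx (2.82) and H2afy2 (2.81), and of none lower by 1 or more (all genes, 15.7%).

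Factors for synthesis and 3′ processing of histone mRNAs were measured for 10 of 11 genes, with a median E of 1.45 in ES and 6 at or above 1 (all genes, 10.8%), and of 0.46, 0.20 and 0.81 at the later stages. The highest in ES were Cpsf1 (2.02) and Sympk (1.74), parts of the cleavage machinery, and the nuclease Cpsf3 (1.67), and the lowest were Lsm10 (-1.17) and Lsm11 (-0.87) of the U7 particle and Slbp (-0.65), the stem-loop binding protein. Total RNA of Slbp was 12.49 in ES and then 12.28, 12.27 and 11.46 at the stages that followed, a fall of 1.02 over the course. Zfp473 and Lsm11, both of the U7-dependent pathway, fell by 3.60 and 1.26.

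Of the 7 genes of histone mRNA decay all were measured, with a median E of 0.96 in ES and 2 at or above 1 (all genes, 10.8%). Their highest values were those of the helicase Upf1 (2.11) and the uridyltransferases Zcchc11 (1.05) and Zcchc6 (1.0, not past the fold), and their lowest those of Lsm1 (-0.39), Dcp2 (0.89) and the exonuclease Eri1 (0.96). The 10 histone chaperones had a median E of 0.48 in ES, with Daxx (1.62) and Chaf1a (1.17) at or above 1 (all genes, 10.8%), followed by Hira (0.98), and with Asf1b (-0.35), Nasp (0.02) and Hat1 (0.13) lowest. Hat1, the acetyltransferase of newly made H4, fell by 2.01 in total RNA from ES to NPC/Neu. No test set these lists apart from the cluster genes or from each other.

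**Figure D5:**
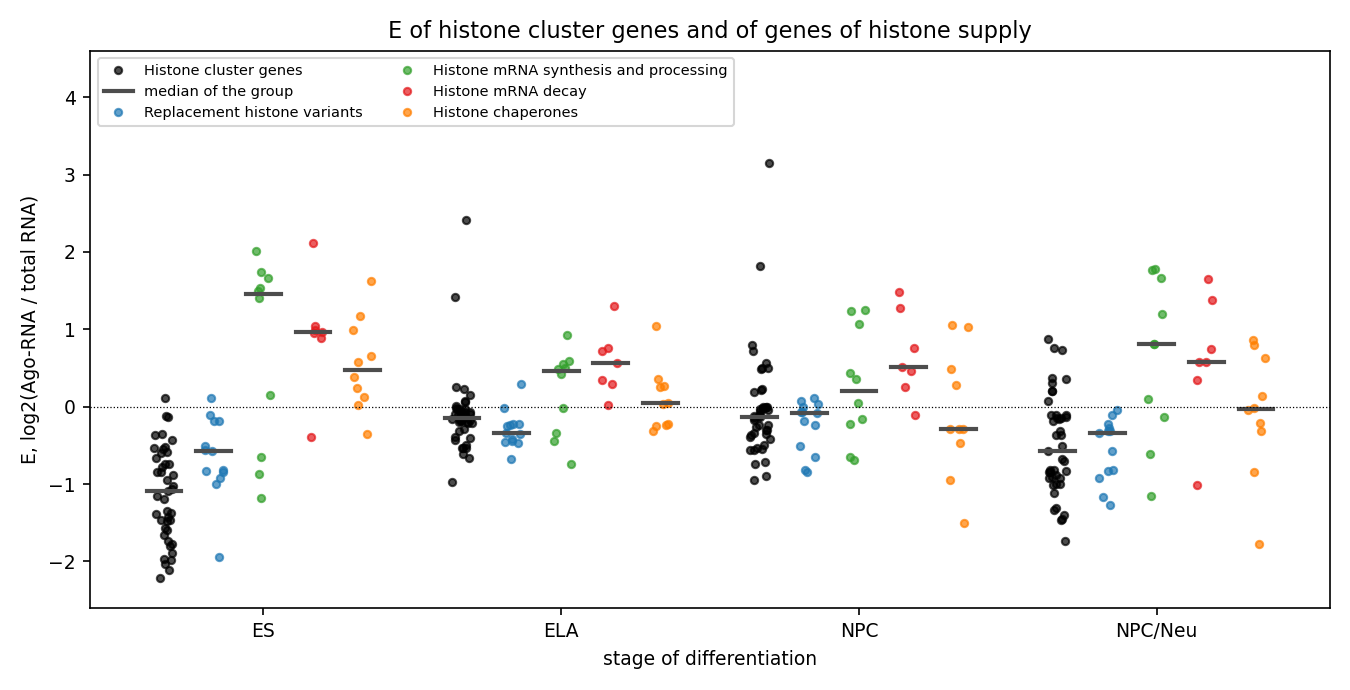
E at the 4 stages of the histone cluster genes (black) and of 4 groups of genes of histone supply (colors), 1 point per measured gene, with the median of the group (dark bar). In ES the cluster genes have a median of -1.10, the replacement variants of -0.57, and the factors for synthesis and processing of 1.45.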

How the data were processed

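Total RNA and Ago-RNA of 4 stages were measured on 8 one-color Agilent mouse arrays with 62976 spots each. Spot intensities were deposited by the authors as scanner output, extracted with Feature Extraction (10.7.3.1 per the file headers, 9.1 in the submitters' processing notes), and were not yet normalized between arrays. The mean signal was background-corrected by normexp (offset 50) and quantile normalized over all 8 arrays in limma (3.58.1, R 4.3.3), following the methods of the study, and log2 transformed. Control spots and irregular spots were left out, spots of a probe were averaged, and a gene's value was the mean over its probes that were well above background on every array compared. Later steps were run in Python 3.11.15 with pandas 2.3.3.

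Samples were grouped by their labels. With 1 array per condition no test was made, a log2 difference of 1 was used as the fold, and precision was taken from probes printed 10 times, which covers the array and not the culture, the precipitation or the pooling. A probe not well above background on one side gave only a bound, the brighter value over the higher of the dim value and the lowest signal well above background on that array. The thresholds for loading and release were those of the methods, with the bound level of 7.82 set from a mixture of 2 Gaussians. Probes were placed in mm9 by alignment and by the GENCODE models. The script was tested on simulated data.

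The members, the gene lists and the rule for the genes named were chosen with earlier results of these data known. For each type the named genes were the 2 highest and 2 lowest in E in ES, the highest and lowest in NPC/Neu and the 2 largest rises and falls in total RNA, together with all H1 genes and those that met the criteria for loading or release. Other members are given so that all are accounted for. The classes of probes, the alternatives by class, copy, saturation and repeated alignment, and the 30-base stretches shown were chosen after seeing the data. H3f3c was not found on the array by that name. No column of per-sample values was left without a sample.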

Additional observations from a re-analysis of the deposited data

Results flagged for a closer look

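The median E of the H3 genes took opposite signs at different stages. It was -1.48 in ES and then -0.0125, 0.21 and -0.34 at the ELA, NPC and NPC/Neu stages. The difference between the stages was not tested, since each condition was read on 1 array.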

How the results depend on the processing

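No paired analysis was possible because each condition was read on 1 array. The median E of the histone cluster genes in ES stayed below 0 under all alternatives run. With scaling to the 75th percentile of the processed signal it was -1.81, with -0.34 for E in NPC, 1.59 for the change in E from ES to ELA, and -0.020, -0.48 and -0.31 for total RNA from ELA to NPC, NPC to NPC/Neu and ES to NPC/Neu, while the medians of all genes moved to -0.30, -0.12, 0.19, -0.17, -0.04 and -0.21. Quantile normalization of the processed signal gave -1.25 for E in ES. Normalizing Ago-RNA and total RNA arrays separately gave -0.90 in ES and -0.37 in NPC/Neu (all genes, 0.16 and 0.23). Without the filter on dim probes E in ES was -0.95 and its change from NPC to NPC/Neu -0.32, and by the brightest probe of a gene E in NPC/Neu was -0.45 and that change -0.30. The following settings were chosen after seeing the data. Transcript body probes alone gave -1.42 in ES, -0.71 in NPC/Neu and 1.21 for the change in E from ES to ELA. Probes past the stem-loop alone (9 genes in ES) gave -0.58 and 0.068 for E in ES and NPC/Neu, 0.32 and -0.091 for the change in E from ES to ELA and from NPC to NPC/Neu, and -0.025, 0.27 and -0.34 for total RNA from ELA to NPC, NPC to NPC/Neu and ES to NPC/Neu. Probes without a near-identical copy gave -0.44 for E in NPC/Neu, -0.29 for its change from NPC and 0.031 for total RNA from ES to NPC/Neu. Without probes above 60% of saturation E was -1.37 in ES and -0.82 in NPC/Neu. Offsets of 16 and 0, and leaving out the Hist1h4i probe with many alignments, moved none of these medians beyond the spread between spots. The median E of H4 in ES turned from -1.47 to 0.30 past the stem-loop, where it rests on that Hist1h4i probe.

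Numbers of genes past the fold moved by over 1.5 times as follows. Shares of all genes under the same settings are not given, and the medians of all genes moved with scaling and with separate normalization. Settings that keep only some of the probes also keep fewer genes, so a lower count there need not be a smaller share. Under 75th percentile scaling, E at or below -1 was met by 37 genes in ES (24 before), 13 in NPC/Neu (8), 2 in NPC (0) and 1 in ELA (0), E at or above 1 by 1 in NPC/Neu (0), a rise in E from ES to ELA by 36 (18), a fall from NPC to NPC/Neu by 6 (10), and a fall in total RNA by 4 from ELA to NPC (1) and 4 from NPC to NPC/Neu (2). With quantile normalization of the processed signal the falls in total RNA at these steps were 4 and 5, and E at or below -1 was met by 1 gene in ELA and 1 in NPC. Separate normalization gave 4 genes at or above 1 in NPC (2), 1 in NPC/Neu (0) and 4 at or below -1 in NPC/Neu (8). An offset of 0 put 1 gene at or below -1 in ELA, offsets of 16 and 0 gave 2 falls in total RNA from ELA to NPC, and without the filter 1 gene rose there. Without near-identical copies 15 of 25 genes were at or below -1 in ES and 3 of 24 in NPC/Neu. From ES to ELA 11 of 25 rose in E, and 1 of 28 fell in total RNA from NPC to NPC/Neu. Transcript body probes alone, with 32 genes measured, gave 1 gene at or above 1 in ELA and 1 in NPC. In total RNA they gave 2 rises from ES to ELA (4), 0 from NPC to NPC/Neu (6) and 1 over the course (6), with 1 fall (2). Probes past the stem-loop, with 8 to 11 genes measured, gave 2 genes at or below -1 in ES and 1 in NPC/Neu. They gave 1 gene at or above 1 in ELA, 1 rise in E from ES to ELA and 1 fall from NPC to NPC/Neu. In total RNA they gave 2 rises from ES to ELA, 0 falls at the later steps and 1 over the course.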
